A study of Mus musculus with 12 samples.

Results

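Skeletal muscle of high-fat-fed mice that had been injected with vehicle was compared with muscle of high-fat-fed mice that had not been injected. The comparison takes 6 of the 12 RNA sequencing libraries of the series, chosen by their labels: 3 of uninjected mice (HFD 4, HFD 30 and HFD 38) and 3 of injected mice (Vehicle 15, Vehicle 23 and Vehicle 55). All were C57BL/6N mice, put on their diets at an age of 6 weeks, and both groups ate the high-fat diet for 18 weeks. The Vehicle group then received daily intraperitoneal injections of 30% DMSO in corn oil over 4 days, and no treatment is listed for the HFD group. The remaining libraries are 3 of high-fat-fed mice given 50 mg/kg of PCN by the same route and schedule (PCN 5, PCN 11 and PCN 27) and 3 of untreated mice on regular chow (Chow 8, Chow 17 and Chow 19). PCN is pregnenolone carbonitrile, a synthetic steroid that activates the pregnane X receptor of rodents. The vehicle of the PCN injections is given in the labels only for the Vehicle group. The muscle is not named, the labels do not say that each library came from a separate mouse, and the p-values below therefore measure the spread between these samples, which may be technical.

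Muscle tissue is mostly multinucleated fibres, with fibroblasts, endothelial cells, resident macrophages and satellite cells between them. Handling, injections and solvents can act on such tissue through stress hormones, whose receptor turns on genes such as Fkbp5 and Zbtb16, through feeding and insulin, which hold the transcription factor Foxo1 out of the nucleus, and through local or peritoneal inflammation. Ribosomal protein genes encode the protein parts of the ribosome and are often regulated as a block, mainly at translation. In bulk tissue, fewer cells of a type and less RNA per cell cannot be told apart.

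The HFD and Vehicle libraries were counted in different tables, HFD with Chow and Vehicle with PCN, so the injections and the table cannot be told apart within these 6 libraries. Total counts were 14266093 to 17096576 in HFD and 16790642 to 17628784 in Vehicle, and genes of the mitochondrial genome took 10.8% to 15.3% of them in HFD and 12.7% to 19.5% in Vehicle. Of 21976 genes in both tables, 12746 passed the filter on low counts. Muscle fibre markers identified the tissue in every library, with all 14 tested. Acta1, the skeletal muscle actin, was at 12716.6 to 16254.2 counts-per-million (CPM) in HFD and 12489.8 to 15246.7 in Vehicle. Of 10 liver markers listed 0 were in both tables, so liver content was not measured here. Slow-fibre markers varied widely within each group, with a summed level of 299 CPM in HFD 4 against 865 in HFD 30, and 165 in Vehicle 15 against 931 in Vehicle 55. Only 5 of 14 slow-fibre markers were in both tables. Vehicle 55 also had the highest red blood cell signal, 219 CPM summed over 6 genes against 45.7 to 75.6 in the other 5 libraries. Vehicle 55 thus stood apart from Vehicle 15 and Vehicle 23, and results are given with and without it where it matters.

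Of the 12746 genes, 193 (1.51%) differed between Vehicle and HFD at an adjusted p under 0.05 in edgeR's quasi-likelihood test, 67 higher in Vehicle (0.526%) and 126 lower (0.989%). The rises were small, with a median log2 fold change of 0.68 and 2 genes at or above 1, and the falls larger, with a median of -0.93 and 54 genes at or below -1. Of the 67 genes that rose, 44 were in a gene list described here, 32 of them cytosolic ribosomal protein genes and 3 proteasome genes. Of the 126 that fell, 103 were in no list, and the lists held 5 coregulators of RNA polymerase II, 3 potassium channels, 2 collagens and 1 subunit of the sodium pump among the rest. The lowest adjusted p was 0.0113, and 2273 genes had an unadjusted p under 0.05. In all 193 the 3 Vehicle values lay wholly above or below the 3 HFD values. That was so for 23.4% of the genes tested, 12.1% higher and 11.3% lower in Vehicle.

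The number of calls depended on single libraries and on gene length. Without HFD 30 or without Vehicle 23 edgeR called 0 genes, with 1494 and 1431 at an unadjusted p under 0.05. The count was 14 without HFD 4, 48 without HFD 38 and 9 without Vehicle 15. Without Vehicle 55 it was 1180, 516 higher and 664 lower, and these held all 193 of the first fit. With the length trend of each library removed, 17 of the 56 named genes that were called stayed called. DESeq2 called 618 of the 7792 genes it gave an adjusted p (7.93%), 243 higher (3.12%) and 375 lower (4.81%), 183 of them among the 193. A fit of all 12 libraries, in which the 4 groups share 1 estimate of the spread, called 0 genes, with 1708 at an unadjusted p under 0.05 and a lowest adjusted p of 0.116.

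**Figure D1:**
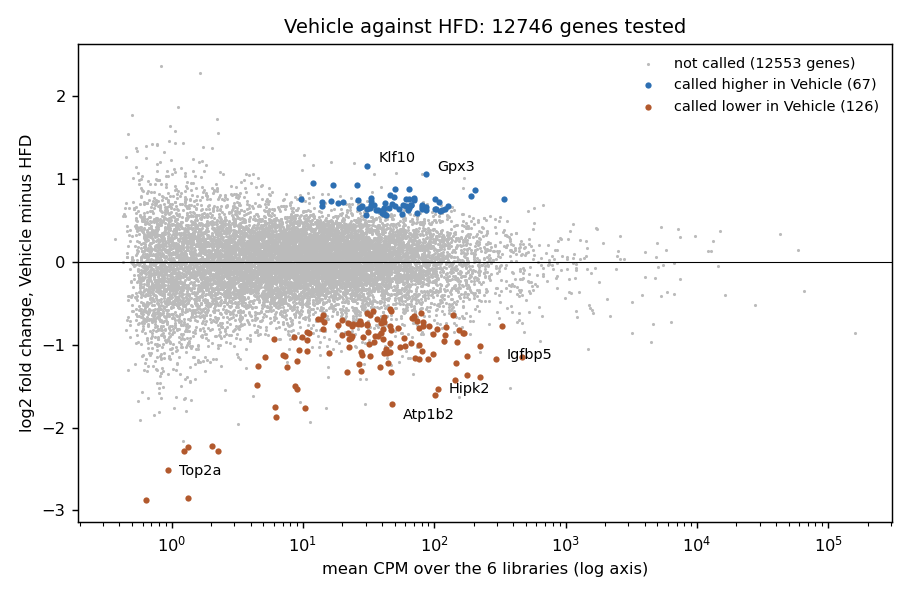
Log2 fold change of Vehicle minus HFD (vertical axis) against the mean level over the 6 libraries in CPM (horizontal log axis), 1 point per gene. The 67 genes called higher lie in a narrow band with a median of 0.68, and the 126 called lower have a median of -0.93 and reach -2.88.

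Ion transport proteins of the surface membrane were among the largest falls. Atp1b2, a beta subunit of the sodium and potassium pump (GRCm38 chromosome 11, 69599736 to 69605942, minus strand), was at 84.7, 76.4 and 56.8 CPM in HFD 4, 30 and 38 and at 27.5, 20.5 and 18.3 CPM in Vehicle 15, 23 and 55. Every Vehicle library was thus below every HFD library, and the level in Vehicle was 30.4% of that in HFD. Its log2 fold change was -1.72 ± 0.19 (SE; edgeR adjusted p = 0.0113), between -1.90 and -1.59 with any 1 library left out. Of the 10 tested sodium pump genes it was the 1 that was called. The median of the list was 0.04, beside 0.00 over all genes tested, and -0.39 without Vehicle 55. The lists of the sodium pump, potassium channels, collagens, mitochondrial ribosome and elongation factors were drawn up by symbol after the data were seen.

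Kcnc1, a fast voltage-gated potassium channel of the delayed rectifier type (chromosome 7, 46396497 to 46438704), was at 92.7, 111 and 116 CPM in HFD and 40.4, 53.8 and 47.7 in Vehicle, a log2 fold change of -1.17 ± 0.15 (SE; edgeR adjusted p = 0.0132). The groups did not overlap. Of 32 potassium channel genes tested, 3 fell (9.38% called, beside 1.51% over all genes tested), Kcnc1 among them, and 0 rose. The other 29 were spread to both sides, with a median of -0.08 over the list, or 0.06 without Vehicle 55. Best3, a calcium-activated chloride channel of the bestrophin family, went from 17.0, 17.0 and 14.2 CPM in HFD to 5.39, 3.26 and 5.48 in Vehicle.

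Membrane and cytoskeletal genes with a similar fall included Mdga1 and Palld. Mdga1, a membrane-anchored adhesion protein, fell by 1.53 on the log2 scale, with 11.8 to 15.2 CPM in HFD and 3.96 to 4.99 in Vehicle. Palld, which encodes palladin of the actin cytoskeleton, was at 62.1, 54.9 and 56.0 CPM in HFD and 29.6, 27.0 and 26.8 in Vehicle. Pde4a, a cyclic AMP phosphodiesterase, was at 27.3, 33.4 and 32.9 CPM in HFD and 10.7, 9.33 and 17.1 in Vehicle. In each of the 3 genes the groups did not overlap, and the edgeR adjusted p values were 0.0113, 0.0113 and 0.0344.

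**Figure D2:**
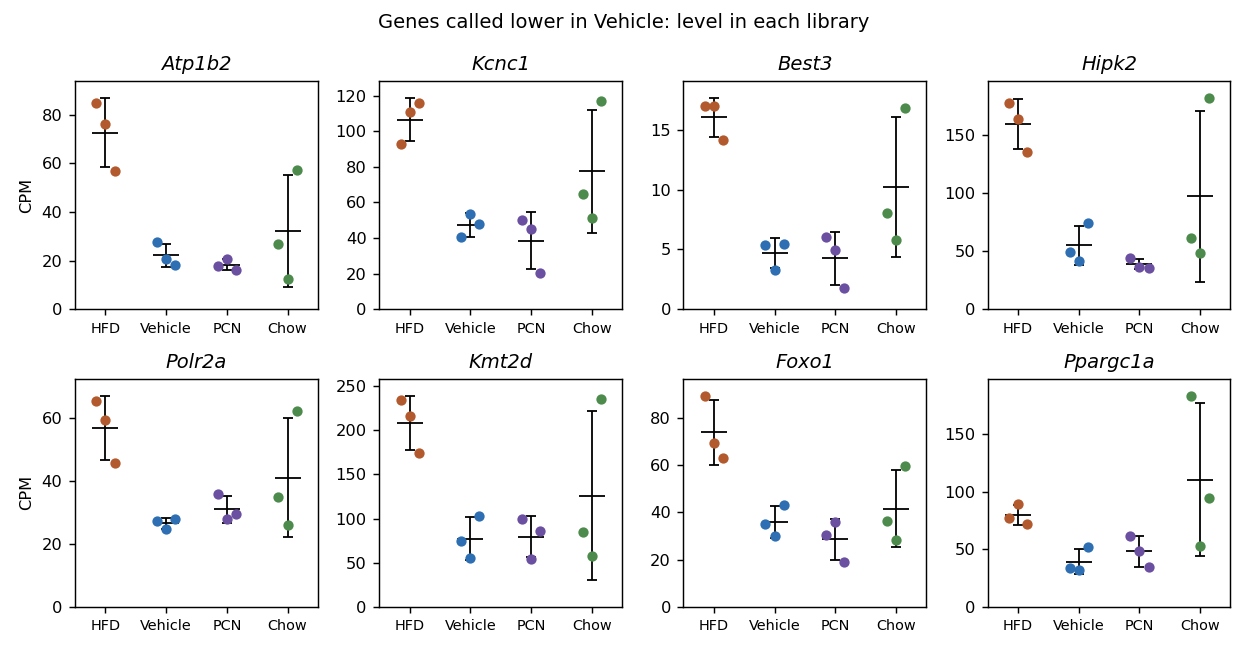
Levels in CPM (vertical axes, from 0) of 8 genes called lower in Vehicle, in each library of HFD, Vehicle, PCN and Chow, with the mean and SD of 3 libraries as bars. All 3 Vehicle points lie below all 3 HFD points, the PCN points lie mostly with Vehicle, and in most panels 1 of the 3 Chow points, Chow 19, lies with or near HFD.

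In the list drawn up for RNA polymerase II and coregulators that work with it, nearly all genes had fitted values below 0. Of 34 tested genes, 5 fell and 0 rose, a share of 14.7% called beside 1.51% over all genes tested. In the list 33 had a log2 fold change below 0, and the median was -0.47, beside 0.00 over all genes. With the length trend removed the median was -0.26 and 3 were called, and the median exonic length of the list was 12.7 kb. Polr2a, the largest subunit of RNA polymerase II (chromosome 11, 69733997 to 69758637), was at 65.5, 59.5 and 45.6 CPM in HFD and 27.3, 24.6 and 27.8 in Vehicle (log2 fold change -1.10 ± 0.15 SE; edgeR adjusted p = 0.0173). Kmt2d, a histone H3 lysine methyltransferase of enhancers, was at 235, 216 and 175 CPM in HFD and 74.3, 55.1 and 103 in Vehicle (-1.43 ± 0.22 SE; adjusted p = 0.0322). In both genes the highest Vehicle library was Vehicle 55 and the lowest HFD library was HFD 38. Other calls included the acetyltransferase Crebbp (-0.88) and the remodeller Chd7 (-0.68). Polr2c, another subunit of RNA polymerase II, and Gps2, a corepressor subunit, were outside the list and rose. They were singled out after their values were seen, with log2 fold changes of 0.64 and 0.75 (edgeR adjusted p = 0.0363 and 0.0394).

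Several kinases and nuclear proteins were among the larger falls. Hipk2, a nuclear kinase of stress signalling, was at 178, 164 and 135 CPM in HFD and 49.0, 41.5 and 74.0 in Vehicle, which is 34.5% of the HFD level (log2 fold change -1.54 ± 0.22 SE; edgeR adjusted p = 0.0228). Tead1, the partner of YAP in growth control, was at 324, 372 and 271 CPM in HFD and 96.0, 90.7 and 181 in Vehicle (-1.39 ± 0.27 SE; adjusted p = 0.0499). Ccnk, the cyclin that activates CDK12, fell by 1.27 on the log2 scale. Mast4, a serine/threonine kinase of the microtubule-associated family, fell by 1.60. Zfhx2, a zinc finger and homeobox protein, and Tlcd3b, which is no nuclear protein but a membrane protein of ceramide metabolism, fell by 1.75 and 1.87, with levels between 7.47 and 10.9 CPM in HFD.

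Naca encodes both a ubiquitous chaperone of nascent chains and a much longer muscle form that counts per gene do not separate. It was at 274, 279 and 208 CPM in HFD and 91.3, 68.1 and 137 in Vehicle (log2 fold change -1.36 ± 0.25 SE; edgeR adjusted p = 0.0433). The groups did not overlap, and PCN 5 and PCN 27, at 218 and 173 CPM, lay above all 3 Vehicle libraries.

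Among metabolic regulators, Foxo1 and Ppargc1a fell. Foxo1, a transcription factor of fasting and atrophy that insulin restrains (chromosome 3, 52268336 to 52353221), was at 89.4, 69.1 and 62.8 CPM in HFD and 35.1, 29.8 and 43.2 in Vehicle (log2 fold change -1.03 ± 0.17 SE; edgeR adjusted p = 0.0344). Ppargc1a, the coactivator that drives mitochondrial biogenesis (chromosome 5, 51454250 to 51567726), was at 77.4, 89.7 and 72.1 CPM in HFD and 33.9, 32.0 and 52.1 in Vehicle (-1.02 ± 0.19 SE; adjusted p = 0.0424). In each gene the highest Vehicle library was Vehicle 55, still below the lowest HFD library. Trim63, Fbxo32 and Pdk4, which are among the known targets of Foxo1 in muscle, did not pass the test. Trim63, a ubiquitin ligase of atrophy, was at 1209.7, 782 and 532 CPM in HFD and 607, 413 and 284 in Vehicle, with overlapping groups (-0.95 ± 0.36 SE; adjusted p = 0.23). For Fbxo32, its partner in atrophy, the log2 fold change was -0.31 ± 0.30 (SE; adjusted p = 0.647), and for Pdk4, the kinase that restrains pyruvate oxidation, it was -0.58 ± 0.20 (SE; adjusted p = 0.154).

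In the insulin signalling list 2 genes fell, 1 rose and 25 of 28 did not pass (10.7% called, beside 1.51% over all genes tested). The median was -0.17, or -0.0009 with 1 called in each direction once the length trend was removed. Igfbp5, a binding protein of insulin-like growth factors, was at 454, 397 and 380 CPM in HFD and 232, 166 and 147 in Vehicle (log2 fold change -1.17 ± 0.19 SE; edgeR adjusted p = 0.0264). Eif4ebp1, a translation repressor controlled by mTOR, rose from 39.2, 34.4 and 32.4 CPM to 52.4, 57.7 and 56.2 (0.65 ± 0.12 SE; adjusted p = 0.0416), while its paralog Eif4ebp2 fell from 146, 139 and 113 CPM to 58.3, 47.4 and 78.0 (-1.12 ± 0.19 SE; adjusted p = 0.0344). The paralogs thus moved in opposite directions. Fasn, fatty acid synthase, fell by 0.85 on the log2 scale (adjusted p = 0.0424) and was the 1 call among 20 lipogenic genes. The glucose transporter Slc2a4, at 245 to 253 CPM in HFD and 225 to 279 in Vehicle, and the uncoupling protein Ucp3, at 295 to 340 and 287 to 313, overlapped between the groups (adjusted p = 0.861 and 0.826).

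Collagen and fibroblast genes were mostly fitted lower in Vehicle, and few passed the test. Col1a1, the main chain of type I collagen, was at 54.2, 54.4 and 93.2 CPM in HFD and 29.7, 27.2 and 23.9 in Vehicle (log2 fold change -1.32 ± 0.22 SE; edgeR adjusted p = 0.0344). Col5a3, a chain of type V collagen, was at 30.4, 33.9 and 48.1 CPM in HFD and 14.1, 16.5 and 17.1 in Vehicle (-1.23 ± 0.18 SE; adjusted p = 0.0217). HFD 38 was the highest library for both. Of 34 collagen genes tested 2 fell (5.88% called, beside 1.51% over all genes tested). Of the 34, 25 had a log2 fold change below 0 and the median was -0.55, or -0.27 without HFD 38. Of 25 fibroblast and matrix genes 1 fell, Col1a1 again, with a median of -0.56 that was -0.29 without HFD 38, and of 7 tendon genes 0 were called, with a median of -0.71. HFD 38 had the highest summed level of the fibroblast list, 2606 CPM against 1395 and 1671 in HFD 30 and HFD 4 and 1279 to 1644 in Vehicle, so that the summed level overlapped between the groups. The part of fibroblast content in these falls was not tested.

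Proliferation genes were low throughout. Mki67, a marker of cycling cells, was at 2.02, 3.78 and 5.46 CPM in HFD and 0.521, 0.922 and 0.868 in Vehicle, and Top2a, the topoisomerase of mitosis, at 1.29 to 2.06 and 0.108 to 0.463. Both fell (edgeR adjusted p = 0.0351 and 0.0452), and the other 6 of 8 tested genes of the list did not pass. The share called was 25%, beside 1.51% over all genes tested, in a list of only 8 tested genes.

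Cytosolic ribosomal protein genes made up the largest group of rises. All 76 tested ribosomal protein genes had a log2 fold change above 0, 32 of them (42.1%) passed the test and 0 fell. Over all genes tested, 0.526% were called higher. The median was 0.62, between 0.53 and 0.69 with any 1 library left out. In 74 genes every Vehicle library was above every HFD library, as in 12.1% of all genes tested. With the length trend removed the median was 0.45 and 0 were called, and the median exonic length of the list was 1.78 kb. Summed over the list, the level was 5162, 5169 and 5440 CPM in HFD 4, 30 and 38 and 7955, 8841 and 7053 CPM in Vehicle 15, 23 and 55. The lowest Vehicle library, Vehicle 55, was still above the highest HFD library. DESeq2 called 71 of the 76. Reads of ribosomal protein genes can be lost to or shared with their processed pseudogenes, which the deposited counting could split.

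Rps27 (chromosome 3, 90212522 to 90213651, minus strand) was at 47.1, 39.9 and 49.0 CPM in HFD and 78.8, 93.8 and 78.2 in Vehicle, a 1.84-fold rise (log2 fold change 0.88 ± 0.13 SE; edgeR adjusted p = 0.0246). The groups did not overlap. Rpl37a, Rpl7a and Rps28 rose by 0.80, 0.79 and 0.78 on the log2 scale. In these 4 genes Vehicle 23 was the highest library. Outside that list, Nop10, a protein of the particles that modify ribosomal RNA, rose from 11.8, 12.1 and 11.4 CPM to 21.8, 24.8 and 20.4 (0.93 ± 0.13 SE; adjusted p = 0.0173). Impdh2, which makes guanine nucleotides, rose by 0.77. Eef1b2 was the 1 call among 12 elongation factor genes, with a log2 fold change of 0.58 ± 0.12 (SE; adjusted p = 0.0499).

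**Figure D3:**
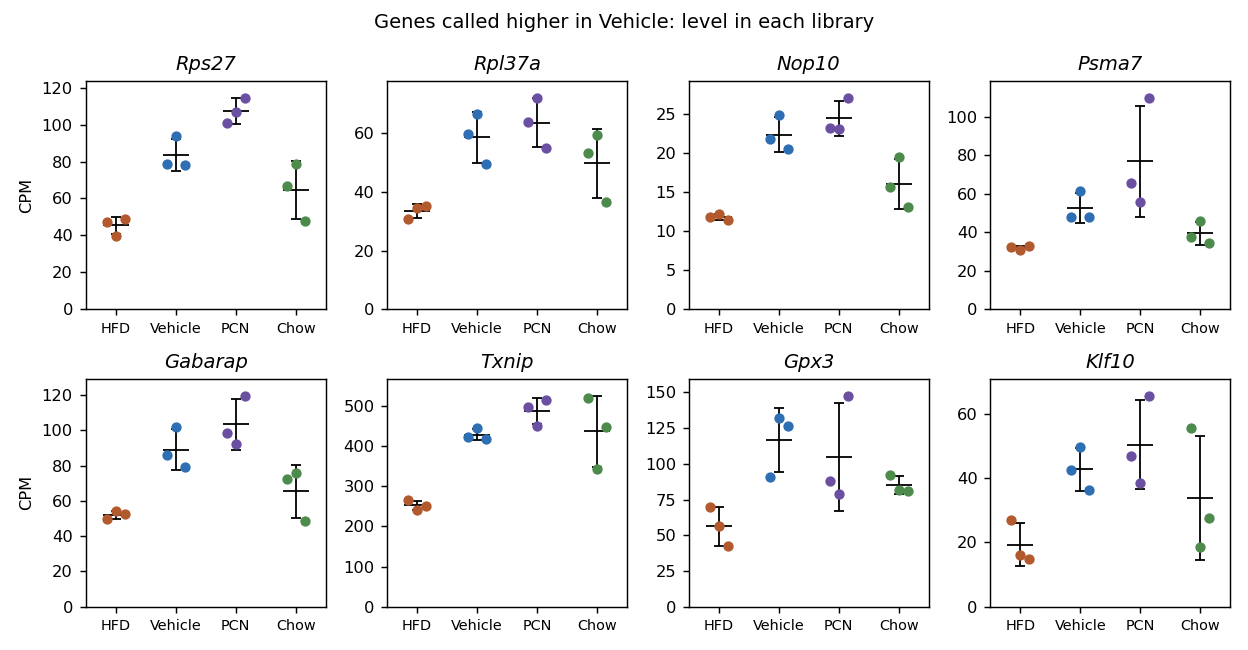
Levels in CPM (vertical axes, from 0) of 8 genes called higher in Vehicle, in each library of the 4 groups, with the mean and SD of 3 libraries as bars. Each gene has its 3 Vehicle points above its 3 HFD points, with Rps27 at 78.2 to 93.8 CPM against 39.9 to 49.0.

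Genes of protein breakdown and of the mitochondrion were mostly fitted above 0 as well, by less, and few passed. Of 35 proteasome genes 3 rose (Psma4, Psma7 and Psmb3), 8.57% called beside 1.51% over all genes tested. In this list 31 were above 0 and the median was 0.35, or 0.22 with 0 called once the length trend was removed. Psma7, a subunit of the core particle, was at 32.5, 30.9 and 32.7 CPM in HFD and 48.1, 61.3 and 48.1 in Vehicle (log2 fold change 0.71 ± 0.13 SE; edgeR adjusted p = 0.0407). Of 77 mitochondrial ribosomal protein genes 1 rose (Mrps16), with 74 above 0 and a median of 0.29, or 0.17 with 0 called once the length trend was removed. Of 78 nuclear genes of oxidative phosphorylation 1 rose, with 72 above 0 and a median of 0.27, which was 0.10 with 0 called once the length trend was removed. That gene was Atp5g2, a copy of the ATP synthase c subunit (chromosome 15, 102662864 to 102672352), at 32.8, 39.2 and 34.2 CPM in HFD and 58.4, 74.3 and 63.5 in Vehicle (0.89 ± 0.14 SE; adjusted p = 0.0246). Shares of 1.30% and 1.28% called in these mitochondrial lists lay near the 1.51% over all genes. The 11 tested genes of the mitochondrial genome itself had 0 calls and a median of 0.13, or -0.03 without HFD 38 and -0.02 without Vehicle 55.

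Single genes of redox, autophagy and lipid control also rose. Gpx3, a secreted glutathione peroxidase, was at 70.0, 56.2 and 42.5 CPM in HFD and 91.2, 132 and 127 in Vehicle (log2 fold change 1.06 ± 0.20 SE; edgeR adjusted p = 0.0452), and was the 1 call among 26 genes of the NRF2 and metal response. Gabarap, which builds autophagosomes, went from 49.7, 54.1 and 52.8 CPM to 86.0, 102 and 79.0 (0.77 ± 0.13 SE; adjusted p = 0.0344), the 1 call among 29 autophagy genes. Mid1ip1, an activator of acetyl-CoA carboxylase, rose by 0.93 on the log2 scale, with 15.1 to 19.2 CPM in HFD and 30.5 to 40.0 in Vehicle. Txnip, a thioredoxin-binding protein that responds to glucose, had tight groups at 265, 242 and 250 CPM in HFD and 422, 446 and 418 in Vehicle (0.76 ± 0.13 SE; adjusted p = 0.0344). Metallothioneins, which bind zinc and copper, had log2 fold changes of 0.01 ± 0.18 (Mt1) and 0.03 ± 0.36 (Mt2, both SE), with overlapping groups.

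**Figure D4:**
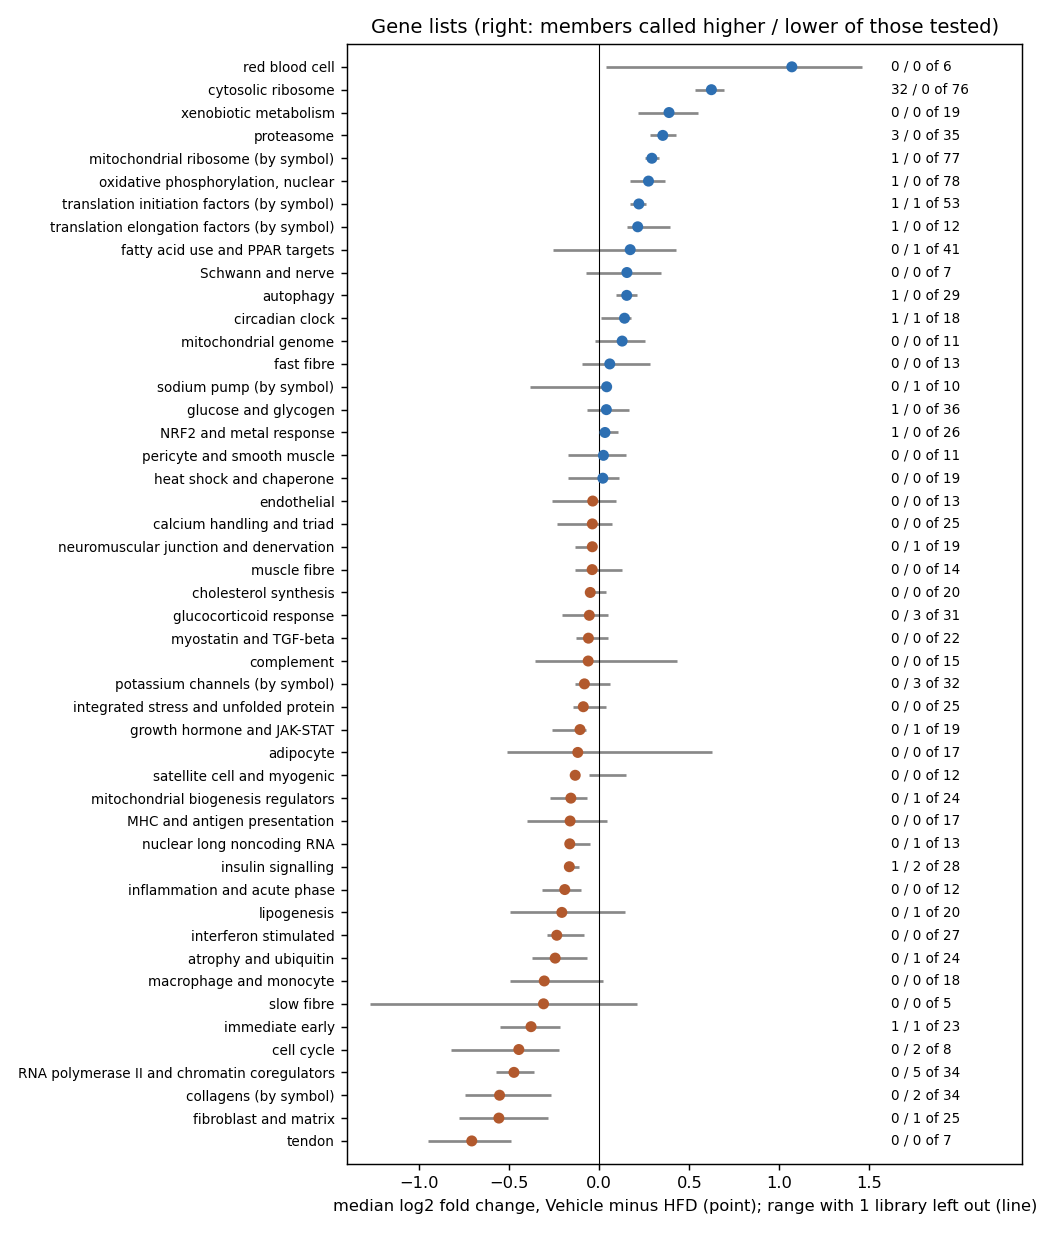
Median log2 fold change of Vehicle minus HFD for each list with at least 5 tested genes (points), its range when 1 library was left out (lines), and the numbers of members called higher and lower. Cytosolic ribosome genes (0.62) and coregulators (-0.47) keep their sides of 0 on every line, and the red blood cell list (1.07) falls to 0.04 without 1 library.

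Acute handling stress leaves marks in the glucocorticoid and immediate early genes, so these lists were read in full. Of 31 glucocorticoid response genes 3 fell (Per1, Cdkn1a and Foxo1) and 0 rose, 9.68% called beside 1.51% over all genes tested. The list's median was -0.06. The median was 0.05 without either HFD 4 or Vehicle 55, and -0.21 without Vehicle 15. With the length trend removed it was -0.20, with 1 gene called higher and 0 lower. Per1, which glucocorticoids also induce, was thus among the genes that fell, whereas Fkbp5 and Zbtb16, also targets of the receptor, did not pass. Fkbp5 was at 117, 90.6 and 95.2 CPM in HFD and 102, 92.2 and 102 in Vehicle (log2 fold change -0.03 ± 0.14 SE; edgeR adjusted p = 0.935). Zbtb16 was at 174 to 202 CPM in HFD and 125 to 165 in Vehicle, a difference of -0.42 ± 0.15 on the log2 scale (SE; adjusted p = 0.171). Cdkn1a, the cyclin-dependent kinase inhibitor p21, was at 12.5 to 17.6 CPM in HFD and 5.42 to 7.76 in Vehicle.

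Of 23 immediate early genes, 19 had a log2 fold change below 0, with a median of -0.38, and 1 passed in each direction. Maff, a small Maf transcription factor, was at 14.1, 13.5 and 10.9 CPM in HFD and 4.92, 3.80 and 4.83 in Vehicle (log2 fold change -1.50 ± 0.18 SE; edgeR adjusted p = 0.0113). Klf10, a zinc finger factor induced by TGF-beta (chromosome 15, 38291463 to 38300706, minus strand), had the largest rise among the genes called, from 27.0, 16.0 and 14.8 CPM to 42.4, 49.5 and 36.3 (1.16 ± 0.23 SE; adjusted p = 0.0499). Fos, the prototype of the class, ranged from 6.07 to 75.9 CPM within HFD alone and from 10.1 to 20.7 CPM in Vehicle (-1.42 ± 0.91 SE; adjusted p = 0.509). For Nr4a1 the log2 fold change was -0.38 ± 0.17 (SE; adjusted p = 0.268).

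Per1 fell among the 18 tested genes of the clock list. Per1, a repressor of the clock loop that light and glucocorticoids also induce, was at 99.9, 112 and 92.1 CPM in HFD and 72.8, 53.6 and 57.7 in Vehicle (log2 fold change -0.72 ± 0.15 SE; edgeR adjusted p = 0.0483). The groups did not overlap. The labels used here give no time of day for the tissue.

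Immune and drug response lists had no calls. Of 27 interferon-stimulated genes 0 passed (median -0.24), of 17 MHC and antigen presentation genes 0 (-0.16), of 12 inflammation and acute phase genes 0 (-0.19), of 15 complement genes 0 (-0.06) and of 19 heat shock genes 0 (0.02). Macrophage markers had 0 calls of 18 and a median of -0.31, with their highest summed level in HFD 38 at 197 CPM, against 74.7 to 137 CPM in Vehicle. Without HFD 38 the median was 0.02 for macrophage markers, 0.04 for MHC, 0.43 for complement and -0.09 for interferon-stimulated genes. Without HFD 4 it was -0.10 for inflammation, and without Vehicle 55 it was 0.07 for complement and -0.17 for heat shock genes. No neutrophil or mesothelial marker passed the filter, 6 of 12 and 5 of 9 of them being in both tables. Of 19 xenobiotic metabolism genes 15 were above 0, with a median of 0.39 and 0 calls, or 0.20 with the length trend removed and 0.21 without Vehicle 55. Fmo2, a flavin monooxygenase, came nearest, at 11.6, 12.2 and 17.9 CPM in HFD and 22.4, 25.3 and 25.1 in Vehicle (edgeR adjusted p = 0.0544). Cyp3a11 and Nr1i2, the receptor that PCN activates, were not analysed here. An adjusted p above the threshold does not show that the groups were alike.

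Fat tissue in the samples differed within groups more than between them. Adipoq, the adipocyte hormone adiponectin, was at 11.2, 13.9 and 48.7 CPM in HFD and 5.50, 24.4 and 25.2 in Vehicle, and Lep, leptin, at 18.2, 23.0 and 76.1 and at 11.4, 31.9 and 37.6. HFD 38 was the highest for both, the groups overlapped, and edgeR's adjusted p was 0.85 and 0.78. Among myogenic genes, Myod1 was at 5.91 to 6.63 CPM in HFD and 8.63 to 14.9 in Vehicle without passing (adjusted p = 0.101), and Mstn, the growth inhibitor myostatin, overlapped between the groups (adjusted p = 0.551).

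Promoter sequences were examined because the ribosomal protein genes moved together and because Per1 and Txnip have known regulatory inputs. RefSeq promoters of GRCm38.p6, 250 bases before to 50 after the start, were matched by symbol to 9565 of the 12746 tested genes, 50 of the 67 that rose and 91 of the 126 that fell. The cyclic AMP response element TGACGTCA, searched on both strands like every motif here, was in 3.30% of all tested promoters, 4 of the 50 and 4 of the 91, and in 6 of 56 matched ribosomal protein genes. The E-box CACGTG was in 10.5% of all, 6 of the 50 and 10 of the 91. The palindromic glucocorticoid response element was in 0.324% of all, 1 of the 50 and 0 of the 91. CCAAT was in 38.5% of all promoters, 38.0% of the first set and 30.8% of the second, GGGCGG in 65.2%, 54.0% and 65.9%, and the CArG box in 1.33% of all and in 1 promoter of each set. The ETS site CCGGAAG, added after the data were seen, was in 18.6% of all, 14 of the 50, 6 of the 91 and 22 of the 56. A match describes the letters and is not evidence of a bound site.

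The 200 bases before the start of 5 of these genes, chosen after their values were seen because each holds 1 match of its motif there, are given 5′ to 3′ on the plus strand, which is the gene's own strand in all 5, with the match in capitals. Rpl18 (chr7:45717871-45718070), Fau (chr19:6057747-6057946) and Trp53inp2 (chr2:155381656-155381855) show the cyclic AMP response element, Per1 (chr11:69098749-69098948) the E-box and Txnip (chr3:96557757-96557956) the glucocorticoid response element.
Rpl18: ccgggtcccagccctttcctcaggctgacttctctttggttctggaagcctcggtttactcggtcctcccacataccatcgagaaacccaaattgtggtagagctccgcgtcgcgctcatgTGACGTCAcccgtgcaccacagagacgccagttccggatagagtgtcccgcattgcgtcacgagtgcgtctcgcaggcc
Fau: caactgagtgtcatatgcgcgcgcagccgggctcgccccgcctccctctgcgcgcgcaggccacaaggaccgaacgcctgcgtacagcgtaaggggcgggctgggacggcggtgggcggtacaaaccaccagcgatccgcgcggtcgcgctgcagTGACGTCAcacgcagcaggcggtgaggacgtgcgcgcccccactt
Trp53inp2: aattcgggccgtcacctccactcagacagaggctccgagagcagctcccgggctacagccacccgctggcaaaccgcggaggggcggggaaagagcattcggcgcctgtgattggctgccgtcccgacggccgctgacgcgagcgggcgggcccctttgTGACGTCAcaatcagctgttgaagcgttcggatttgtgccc
Per1: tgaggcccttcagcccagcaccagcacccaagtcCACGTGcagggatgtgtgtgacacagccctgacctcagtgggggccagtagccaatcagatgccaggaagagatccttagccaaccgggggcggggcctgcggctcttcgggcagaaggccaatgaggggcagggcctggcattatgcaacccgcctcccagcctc
Txnip: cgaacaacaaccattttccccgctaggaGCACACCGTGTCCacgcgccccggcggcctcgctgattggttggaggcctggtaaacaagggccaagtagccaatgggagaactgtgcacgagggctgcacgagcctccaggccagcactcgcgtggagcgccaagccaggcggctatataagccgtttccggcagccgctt
The cyclic AMP response element began 79 bases before the start in Rpl18, 45 in Fau and 41 in Trp53inp2. The first 2, a ribosomal protein and a ubiquitin-like fusion to one, rose by 0.68 and 0.65 on the log2 scale, and Trp53inp2, an autophagy cofactor, fell by 1.02. The same letters at a similar distance thus stood before genes that rose and a gene that fell. The E-box of Per1 began 166 bases before the start and the element of Txnip 172.

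Gene length moved with the direction of the change. Genes that rose had a median exonic length of 2.13 kb, genes that fell 8.00 kb and all tested genes 4.48 kb. Of 5 equal groups by length, the shortest (median 1.70 kb) had its median log2 fold change at 0.18 and held 41 genes called higher and 6 lower. In the longest group, with a median of 10.1 kb, it was -0.15, with 0 called higher and 64 lower. The GC content of the transcripts had medians of 51.5% in genes that rose, 51.8% in those that fell and 49.2% in all.

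With the length trend of each library removed, a setting added after the data were seen, edgeR called 31 genes (0.243%), 2 higher (0.0157%) and 29 lower (0.228%), 30 of them among the 193. With a GC trend removed as well it called 27 (0.212%), 1 higher (0.00785%) and 26 lower (0.204%). Atp1b2 (-1.74, adjusted p = 0.0157), Kcnc1 (-1.01, adjusted p = 0.0408), Best3, Mdga1, Palld, Maff, Ccnk, Mast4, Hipk2, Polr2a, Kmt2d, Col5a3 and Igfbp5 were among those that stayed called in the first of these fits. Igfbp5 was lost in the second, with an adjusted p of 0.0522. The ribosomal protein list kept a median of 0.45 with 0 genes called, Rps27 standing at 0.66 (adjusted p = 0.0572). Foxo1, Ppargc1a, Per1, Klf10, Gpx3, Txnip and Col1a1 were no longer called, with adjusted p from 0.056 to 0.118. The falls of the ion transport genes and of Maff were nearly the same size with the trend removed, apart from Kcnc1, and the rise of the ribosome was smaller and lost its calls.

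**Figure D5:**
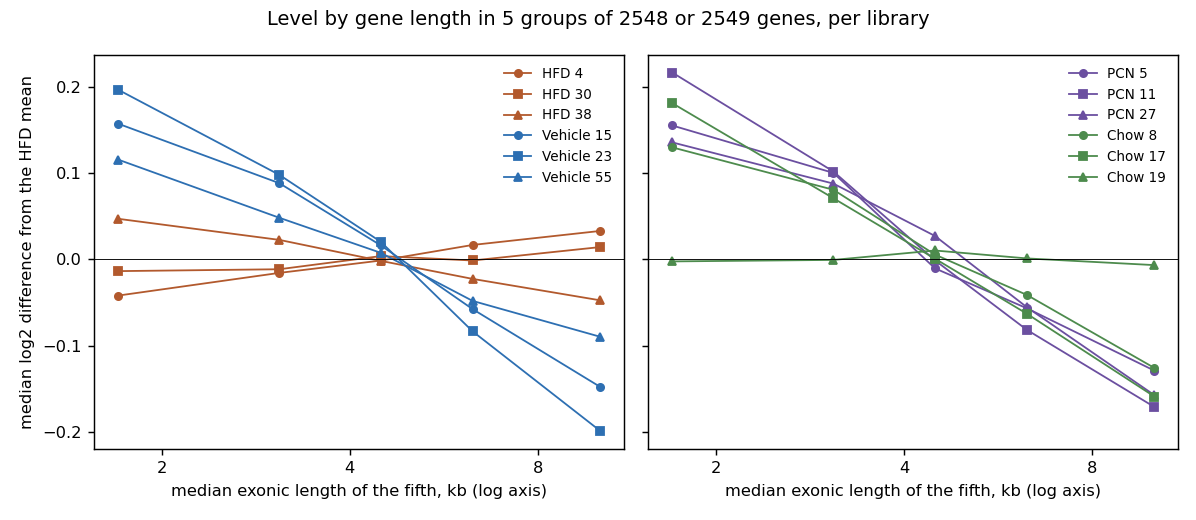
Median log2 difference from the HFD mean (vertical axis) of genes in 5 groups by exonic length in kb (horizontal log axis), 1 line per library, HFD and Vehicle on the left and PCN and Chow on the right. All 3 Vehicle lines run from above 0 for short genes to below 0 for long ones, as do the PCN lines, Chow 8 and Chow 17, whereas Chow 19 is flat.

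The Chow and PCN libraries took no part in choosing the 193 genes. For each of them, the genes whose level was nearer to the HFD mean than to the Vehicle mean were counted, which describes genes chosen for that difference and is no test. Chow 19 was nearer to HFD in 174 of the 193 genes (90.2%). Chow 8 and Chow 17, which were also uninjected and were counted in the same table as HFD, were nearer to HFD in 33 and 13 and so nearer to Vehicle in 160 and 180. PCN 5, PCN 11 and PCN 27 were nearer to HFD in 9, 6 and 11. Uninjected chow libraries of the table that holds HFD thus lay on both sides.

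Single genes show the same. Hipk2 was at 61.0, 48.6 and 182 CPM in Chow 8, 17 and 19, beside 135 to 178 in HFD and 41.5 to 74.0 in Vehicle. Kmt2d was at 84.4, 57.7 and 236 CPM in these, and Ccnk at 21.1, 19.2 and 61.8. The summed ribosomal protein level was 6979.5 and 8059 CPM in Chow 8 and Chow 17 and 5499 CPM in Chow 19, so that Chow 19 lay just above the HFD range of 5162 to 5440 and the others near Vehicle.

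Some of the 193 genes were split the way the injections were. In 31 of the 193 genes, 14 higher and 17 lower, all 6 libraries of injected mice (Vehicle and PCN) lay apart from all 6 of uninjected mice (HFD and Chow), 16.1% of them. It was so for 10.8% of all 2985 genes whose HFD and Vehicle libraries did not overlap, which every called gene fulfils, and the difference of these shares was not tested. The injected libraries are also those of 1 table, so the injections and the table cannot be told apart here either, and the 31 were picked after their values were seen. Maff was at 10.9 to 14.1 CPM in HFD and 13.9 to 26.5 in Chow, against 3.80 to 4.92 in Vehicle and 3.62 to 6.69 in PCN. Col5a3 was at 30.2 to 48.1 CPM in the uninjected and 8.47 to 17.1 in the injected libraries. Col1a1 showed the same order, with 34.7 to 93.2 CPM against 5.85 to 29.7. On the other side, Nop10 was at 11.4 to 19.4 CPM in the uninjected and 20.4 to 27.0 in the injected libraries, and Psma7 at 30.9 to 45.9 against 48.1 to 110. Gabarap, Psma4, Impdh2 and Fau rose and Cdkn1a fell in the same way, as did Vcl, the adhesion protein vinculin, at 70.8 to 124 CPM against 51.6 to 68.3. Of the ion transport genes named above, none was in this set, because Chow 17 lay among or below the injected libraries in each.

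PCN-treated mice had been injected on the same schedule, and PCN against HFD shares the 3 HFD libraries with the comparison above, so its values are given side by side and not as independent support. It had 373 genes called of 12686 (2.94%). Atp1b2 had a log2 fold change of -1.99 in PCN against HFD (edgeR adjusted p = 0.00847) beside -1.72 in Vehicle against HFD, Hipk2 -2.03 (adjusted p = 0.00699) beside -1.54, and Rps27 1.25 (adjusted p = 0.0205) beside 0.88. Between PCN and Vehicle, which were counted in 1 table and differ, per the labels, by PCN, 0 of 12829 genes were called by edgeR, with 361 at an unadjusted p under 0.05. The comparison of injected with uninjected groups that shares no library with Vehicle against HFD is PCN against Chow. Those groups also differ by diet, by PCN and by table, so their comparison is not of the injections alone. In it 1 gene was called (Fbp2, 0.00786% of those tested), and 0 of the 193 were.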

How the data were processed

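Gene expression was deposited as 2 tables of unnormalised read counts, 1 row per Ensembl gene. Per the submitters' processing notes, HISAT2 and HTSeq were used, along with DESeq2, and the builds were mm10 and GRCm38. The sources used here give no versions, strand setting or annotation release, so reads of overlapping, antisense and near-identical genes cannot be separated. The tables (24093 and 24453 genes) were joined by Ensembl identifier, and the 21976 shared genes had the same coordinates in both, printed here 1-based. GENCODE M21 (GRCm38) gave exonic lengths. Replicates differed by far more than sampling noise (chi-square per gene 21.6 or more), so each library was 1 sample.

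The 6 libraries were fitted with edgeR 4.0.16 (R 4.3.3; TMM scaling, filterByExpr with a minimum count of 10, robust quasi-likelihood F test, Benjamini-Hochberg threshold 0.05). Log2 fold changes are Vehicle minus HFD, SE is the absolute log2 fold change over the square root of F, and CPM levels use TMM factors of all 12 libraries. Alternatives were DESeq2 1.42.0, other scalings, filters, thresholds and covariates, each library left out, and, added after the data were seen, removal of a length or a length and GC trend (lowess) from each library. Both tools and the length step were tested on simulated counts. Members and the 46 gene lists were chosen with earlier results of these data known, and 6 gene families were added by symbol after the data were seen. Named genes are the 12 largest rises and falls among calls whose mean reached 5 CPM and whose groups lay apart, the 8 lowest p in each direction, up to 6 members of each list described and a fixed set of 18. Pseudogenes and gene models that have no name enter only the counts, and an antisense transcript that the rule takes is left out. Genes singled out otherwise are said to be so. A few genes this rule selects have been omitted.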

Additional observations from a re-analysis of the deposited data

How the results depend on the processing

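The direction of every named gene called in the first fit held under each alternative run, while the number of calls did not hold. Of 193 calls (67 higher, 126 lower), DESeq2 gave 618 (243 and 375) and no expression filter 571 (211 and 360). The fit of all 12 libraries and a threshold of 0.01 each gave 0, and no gene was called in either direction. With 1 library left out the total ran from 0 to 1180, the higher calls from 0 to 516 and the lower from 0 to 664. Leaving out HFD 4 and Vehicle 55 together gave 1256 (548 and 708). A term for title numbers above 7 gave 93 (48 lower), of which 24 were among the 193, and kept 15 of 56 named calls, a slow-fibre covariate 498 (198 and 300), removal of the length trend 31 (2 and 29), and removal of length and GC trends 27 (1 and 26). The title-number term covers Vehicle 15 and Vehicle 23 and no HFD library, so the group difference in that fit is Vehicle 55 alone against HFD. Its calls therefore cannot show whether the difference between the whole groups holds. The median log2 fold change of the shortest of 5 length groups was 0.25 with a mean of at least 5 CPM required, 0.0033 with the length trend removed and 0.0112 with both removed, and that of the longest then 0.0346 and 0.0245. PCN against HFD gave 811 calls with DESeq2 and 0 to 634 with 1 library left out, and PCN against Chow 92 and 0 to 51. The cause of these changes was not tested. No paired analysis was possible because the libraries of HFD and Vehicle carry no shared replicate numbers. There were 3 libraries a group, with depths of 14266093 to 17628784 counts. How far depth or the spread between libraries limited the calls was not tested.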

Other observations

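Ttn, Ryr1 and Hrc, chosen for mention after their values were seen, were fitted lower in Vehicle without passing the test. Ttn, the giant sarcomere protein titin, had a log2 fold change of -0.85 ± 0.28 (SE; edgeR adjusted p = 0.153), with the 3 Vehicle libraries below the 3 HFD libraries. Ryr1, the calcium release channel, was at -0.72 ± 0.20 (SE; adjusted p = 0.101), with groups that did not overlap either. Hrc, a calcium-binding protein of the sarcoplasmic reticulum, came closest in that list at 582, 540 and 484 CPM in HFD and 323, 282 and 367 in Vehicle (-0.72 ± 0.16 SE; adjusted p = 0.0518). Of the 25 genes of the calcium handling list 0 were called, and the median was -0.04.

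The genes below were also chosen after their values were seen. Among ubiquitin ligases, Nedd4l, which removes ion channels and transporters from the membrane, fell from 51.0, 47.9 and 48.8 CPM in HFD to 34.0, 25.9 and 28.4 in Vehicle (log2 fold change -0.74 ± 0.13 SE; edgeR adjusted p = 0.0348). It was the 1 call among 24 atrophy and ubiquitin genes. Of 13 nuclear long noncoding RNAs 1 fell, Kcnq1ot1, which is imprinted and antisense to a potassium channel gene, from 118, 129 and 95.7 CPM to 76.6, 67.9 and 55.6 (-0.78 ± 0.16 SE; adjusted p = 0.0486). Reads of Kcnq1ot1 and of the gene on the other strand can be told apart only where the counting used strand. Neither Nedd4l nor Kcnq1ot1 was called with the length trend removed, at adjusted p of 0.116 and 0.194. Kera, a matrix protein of tendon, had the largest fitted difference of its list at 1.70 to 2.28 CPM in HFD and 0.163 to 0.705 in Vehicle, and just missed the threshold (adjusted p = 0.0507).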
